A study of Mus musculus with 8 samples.

Results

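The cytosolic ribosomal protein genes are the nuclear genes for the proteins of the ribosome outside mitochondria. They were chosen by symbol: Rpl or Rps followed by a digit, plus Rpsa, Rplp0, Rplp1 and Rplp2, without the ribosomal S6 kinases, the pseudogenes with -ps in their symbol and Rps19bp1. The rule found 86 of 27998 genes in the count matrices, of which 53 encode large subunit proteins or paralogs of them and 33 small subunit proteins or paralogs of them. The rule itself used no measured value, but the members were chosen with earlier results of these data known. 84 of the 86 passed the filter on low counts, and the exceptions were Rpl10l, with 1 UMI in all mice together, and Rpl3l, with 49.

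The study followed hematopoietic stem and progenitor cells (HSPCs) of wild-type mice through the response to interferon alpha (IFNα). Control mice received 100 µl of PBS. Treated mice received recombinant mouse IFNα under the skin, at 50000 IU for each 20 g of mouse, and were analysed 3, 24 or 72 h later. All mice were wild type, 12 to 14 weeks old, with 4 mice in each of the 4 groups. The sequenced cells were sorted bone marrow LK cells (Lin- cKit+), a gate that holds stem cells and committed progenitors, to which LK CD150+ CD48- CD34- cells, a fraction rich in hematopoietic stem cells (HSCs), were added. The 4 mice of a group were told apart by hashtag antibodies, which label all cells of a mouse with the same barcode, and shared 1 droplet library, so that the time point and the library cannot be told apart.

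A ribosome joins a small subunit, which reads the mRNA, with a large subunit, which forms the peptide bond, and each holds one copy of nearly every one of its proteins. The mRNAs of ribosomal proteins begin with a C followed by a run of pyrimidines, the terminal oligopyrimidine or TOP motif, through which mTORC1 and LARP1 control their translation and stability together. HSCs are known for a low rate of protein synthesis, and loss of a single copy of a ribosomal protein gene causes the bone marrow failure Diamond-Blackfan anaemia.

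The start of these transcripts is shown for 3 members with large rises after IFNα, Rpl35, Rps27 and Rpl38, and for 2 that fell, Rplp0 and Rps2. Each line gives the gene strand from 10 bases before to 20 bases from the RefSeq start, in GRCm38.p6, with the longest run of C and T in capitals:
Rpl35 (chr2:39005112-39005141, minus strand): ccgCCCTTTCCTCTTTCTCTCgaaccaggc
Rps27 (chr3:90213629-90213658, minus strand): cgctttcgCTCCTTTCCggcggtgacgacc
Rpl38 (chr11:114668570-114668599, plus strand): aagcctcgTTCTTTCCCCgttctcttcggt
Rplp0 (chr5:115559457-115559486, plus strand): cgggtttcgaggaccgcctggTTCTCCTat
Rps2 (chr17:24720053-24720082, plus strand): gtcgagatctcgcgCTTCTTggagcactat

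Within the bases shown, the run was 18 bases in Rpl35, 9 in Rps27, 10 in Rpl38, 7 in Rplp0 and 6 in Rps2. The RefSeq starts of Rplp0 and Rps2 did not begin with a C followed by a run of pyrimidines. Whether these starts are the ones used in these cells was not tested. Promoter sequence was matched for 65 of the 86 members. A run of at least 8 pyrimidines on the gene strand, between 20 bases before and 50 bases after the start, was present in 49 of the 65 (75.4%) and in 28.5% of all 27018 genes with a promoter sequence. Rps2, which fell, was among the 49 in this wider window, as were Rpl35, Rps27 and Rpl38, and Rplp0 was not. Rps28, Rpl22, Rpl23, Rpl24 and Rpl27, which rose at 3 h, had no such run. Rpl7a, Rpl10a, Rps6 and Rpl4, which fell at 3 h, had one. A link between the run and the direction of change was not tested. The letters CCGGAAG, the core bound by ETS family factors, stood on either strand of the 300-base window of 26 members (40.0%) and of 9.93% of all genes. The letters AAGATGGC, the core bound by YY1, were found on either strand in 6 members (9.23%) and in 3.19% of all genes. These strings overlap where CCGGAAG runs into AAGATGGC, and a match describes the letters only.

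After filtering, 2474 control cells, 1661 cells of the 3 h library, 3462 of the 24 h library and 2449 of the 72 h library were kept, and control mouse 4 gave 58 of them. Median UMIs per cell were 18964, 12017, 18953 and 14763 in the same order, and the summed counts of a mouse ranged from 1102706 to 26446327 UMIs. The 3 h library had 17.2% of barcodes without a hashtag, against 4.37 to 5.45% in the other 3, and 3 kept barcodes occurred in more than 1 library. The libraries carried the interferon response of their labels: all 10 interferon-stimulated genes checked rose at 3 and at 24 h, Ifit3 by 7.58 on the log2 scale at 3 h. Summed levels of the 8 HSC markers, which include the interferon-inducible Ly6a, were 114 to 177 CPM in control, 311 to 427 at 3 h, 219 to 268 at 24 h and 175 to 184 at 72 h, and those of the 15 myeloid progenitor markers 13486 to 18771, 7981 to 11803, 8871 to 11517 and 7723 to 9941 CPM. No tested marker of these lists was at 0 in any group. CPM here are UMI counts scaled to 1e+06 per mouse with TMM-adjusted library sizes. In sums over all cells of a mouse, fewer cells of a type and less RNA per cell cannot be told apart.

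In sums over all cells of a mouse, ribosomal protein mRNA took up a larger share of UMIs at each time after IFNα than in control mice. The difference shrank in cells of matched depth and, at 24 h, in HSC-like and lymphoid-primed (LMPP-like) cells. In the 4 control mice the share was 30.8%, 31.4%, 31.6% and 32.0% (mean 31.4%, SD 0.497). At 3 h it was 34.5%, 35.6%, 35.0% and 34.3% (mean 34.8%, SD 0.590). At 24 h it was 33.1%, 33.5%, 33.1% and 33.2% (mean 33.2%, SD 0.170), and at 72 h 34.6%, 35.0%, 34.8% and 35.0% (mean 34.8%, SD 0.197). Every treated mouse lay above every control mouse, and the 24 h mice lay between the control mice and the mice of the other 2 times.

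**Figure D1:**
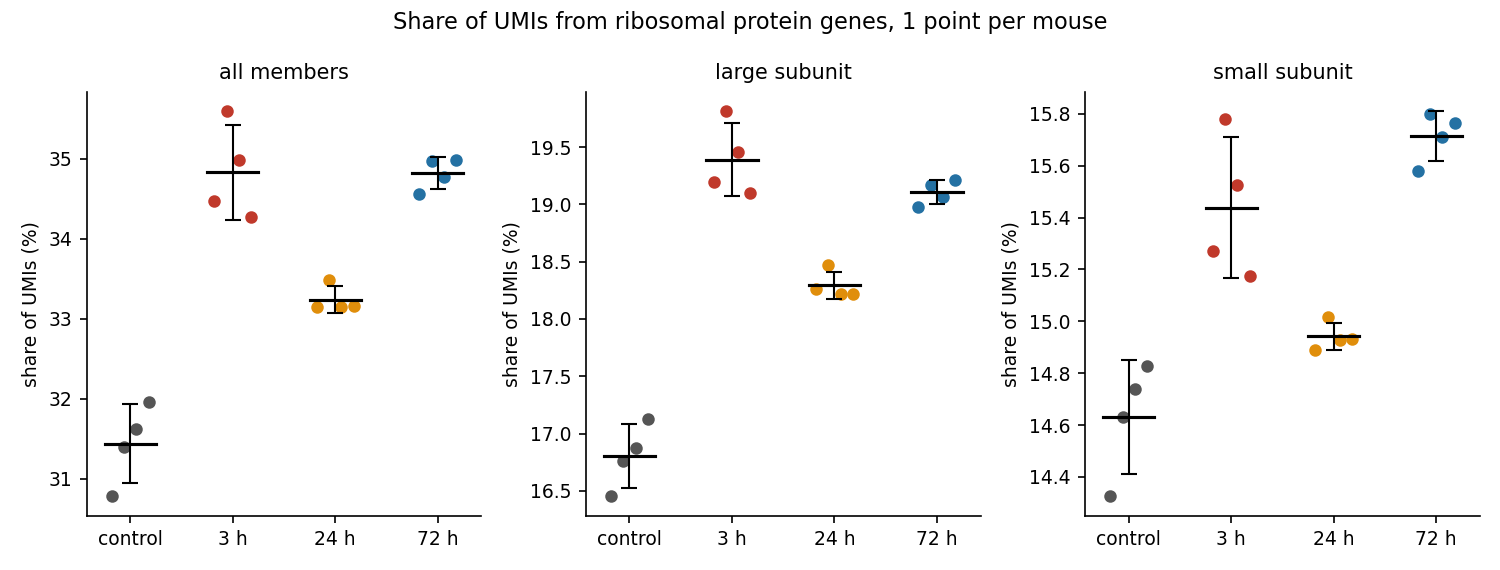
Share of all UMIs (%, y axis, not starting at 0) from all 86 ribosomal protein genes, from the large and from the small subunit genes, in each of 16 mice by time point (x axis); points are mice, the wide line is the mean and the bars are ± SD (n = 4). All treated mice lie above the control mice in each panel, and the mice at 24 h lie below those at 3 and 72 h.

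The large subunit genes accounted for more of the difference than the small subunit genes. Their share went from 16.5–17.1% in control mice to 19.1–19.8% at 3 h, 18.2–18.5% at 24 h and 19.0–19.2% after 72 h. The small subunit genes went from 14.3–14.8% to 15.2–15.8%, 14.9–15.02% and 15.6–15.8%. The ratio of large to small subunit UMIs was 1.14 to 1.16 in control mice, 1.25 to 1.26 at 3 h, 1.22 to 1.23 at 24 h and 1.21 to 1.22 at 72 h, with no overlap between control and any treated group.

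In each group the share was higher in cells of 10000 to 15000 UMIs than over all cells. UMIs per cell differed between libraries, except that the control and 24 h libraries had near-equal medians, 18964 and 18953. Their mean shares over all cells were 31.4% and 33.2%. UMIs per cell also differed between the classes of cells described below. In control, medians were 8235 and 11045 in the HSC-like clusters and 27068 to 35368 in the myeloid progenitor-like clusters. A limit on UMIs per cell can therefore also change the mix of classes. In cells of 10000 to 15000 UMIs alone, the share was 34.1–34.8% in control mice, 35.3–36.6% at 3 h, 34.7–35.1% at 24 h and 36.3–37.6% after 72 h. The difference from control then fell from 3.39 to 1.5 percentage points at 3 h, from 1.80 to 0.520 at 24 h, where the groups overlapped, and from 3.38 to 2.46 at 72 h. Rpl35 in these cells had 637 to 732 CPM without TMM scaling in control mice, 3247 to 3512 at 3 h, 1465 to 1561 at 24 h and 2339 to 2432 after 72 h. Rps27 in the same cells went from a mean of 1219.6 in control mice to 2675 at 3 h, 1859 at 24 h and 2218 after 72 h, a smaller rise than over all cells. Rpl38 went from a mean of 1995 to 5235 at 3 h and Rps29 from 1972 to 5303, while Rplp0 fell from 5806 to 4366 and Rps2 from 7036 to 5657. The other members were not measured in cells of matched depth.

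At 3 h against control, 51 of the 84 tested members rose and 20 fell (edgeR quasi-likelihood test over 16 mice, Benjamini-Hochberg adjusted p under 0.05), against a background of 19.7% of all 12042 tested genes higher and 19.2% lower. The ranges of the 3 h and control mice did not overlap for 52 members above and 20 below, where 16.2% and 13.1% of all genes did so. The median log2 fold change was 0.19 over the members and −0.03 over all genes. 11 members rose past an additional limit of log2 fold change 1 (background 5.22%) and 0 fell past it (background 1.68%). The lowest member value was −0.43 at 3 h, −0.73 at 24 h and −0.66 at 72 h, so that 0 members fell past that limit at any p. With library size alone as the scaling, which put the median of all genes at −0.175, 42 members were higher and 35 lower, and with the trend on transcript length removed 43 were higher and 27 lower.

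The rises were uneven, and the members with the largest were small proteins of both subunits. Rpl35, a large subunit protein at the rim of the tunnel through which the new peptide leaves (chromosome 2, 39001580 to 39005624, minus strand, GRCm38), was at 644, 668, 665 and 654 CPM in control mice. It was at 3430.0, 3601, 3521 and 3505 CPM at 3 h, at 1524, 1519.7, 1519 and 1554 at 24 h, and at 2345, 2416, 2365 and 2453 at 72 h. No group overlapped another, and the order was 3 h, 72 h, 24 h, control. Against control, Rpl35 rose 5.34-fold at 3 h (log2 2.42 ± 0.024, SE, adjusted p = 5.05e-26), 2.32-fold at 24 h (log2 1.22 ± 0.024, adjusted p = 5.9e-20) and 3.64-fold at 72 h (log2 1.86 ± 0.024, adjusted p = 9.03e-24).

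Rps27, a zinc-binding small subunit protein and a Diamond-Blackfan anaemia gene (chromosome 3, 90212522 to 90213651, minus strand), was at 897, 944, 946 and 919 CPM in control mice and at 2719, 2819, 2789 and 2572 at 3 h. It was at 1505, 1518, 1518 and 1497 CPM at 24 h and at 1837, 1849.9, 1833 and 1851 at 72 h. The groups were again separate and in the same order, with folds of 2.94 (log2 1.56 ± 0.027), 1.63 (0.70 ± 0.027) and 1.99 (0.99 ± 0.027).

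Rpl38, known for its part in the translation of Hox mRNAs in the embryo, had 1623, 1675, 1707 and 1783 CPM in control mice and 5279.8, 5534, 5411 and 5352 at 3 h. The 24 h mice held 3066 to 3211 CPM and the 72 h mice 3458 to 3575, between control and 3 h. Rps28, which sits where the mRNA leaves the small subunit, rose 3.13-fold at 3 h, from 1493 ± 39.1 to 4671 ± 113 CPM (SD, n = 4), and was 1.52-fold and 1.61-fold above control at 24 and 72 h. Rps29, another zinc-binding small subunit protein, rose 3.15-fold at 3 h, from 1791 ± 32.5 to 5640.1 ± 73.7 CPM, and was 1.67-fold and 2.20-fold higher at the later times.

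6 further small proteins more than doubled at 3 h. Rps21 rose by 1.35 on the log2 scale, Rpl41 by 1.33, Rpl37 by 1.32, Rpl36 by 1.29 and Rpl37a by 1.11. Rpl39, which lines the exit tunnel, rose by 1.33, from 2885–3050.1 CPM in control mice to 7406–7666 at 3 h. At 24 h these 6 were between 0.63 and 0.76 above control, and at 72 h between 0.81 and 0.93, with adjusted p-values under 0.05 throughout.

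**Figure D2:**
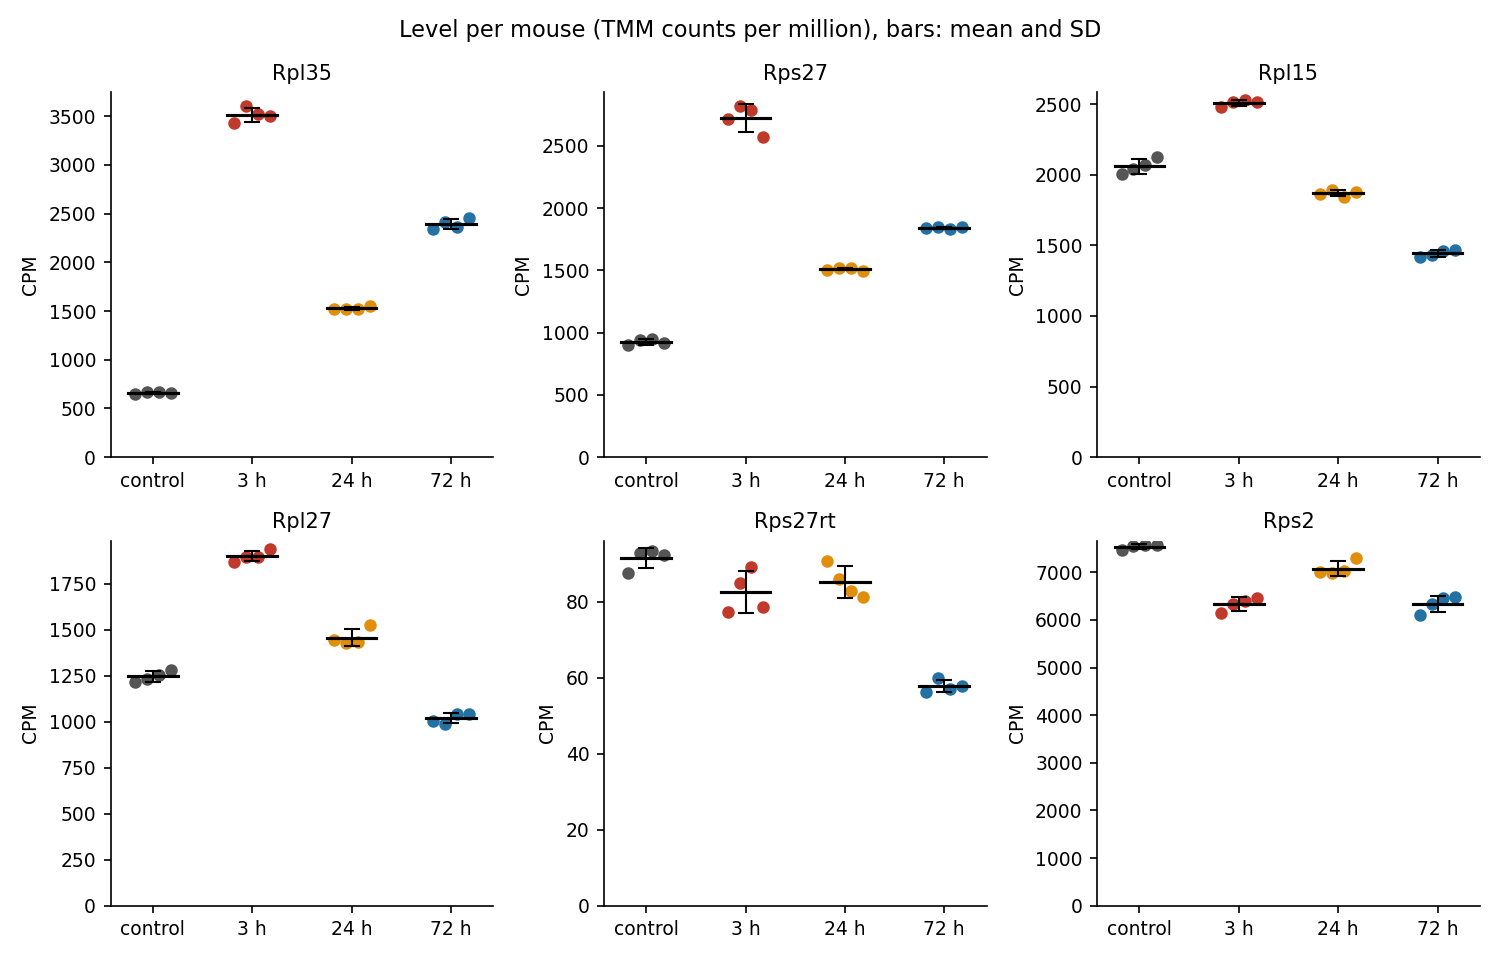
Levels (CPM, y axis) of Rpl35, Rps27, Rpl15, Rpl27, Rps27rt and Rps2 in each of 16 mice by time point (x axis); points are mice, lines the mean and bars ± SD (n = 4). Rpl35 and Rps27 are lowest in control and highest at 3 h, whereas Rpl15 and Rpl27 are highest at 3 h and lowest at 72 h.

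Rpl41 is shown because it is the shortest coding sequence among the members, 78 bases for 25 residues, whole and in lower case:
Rpl41: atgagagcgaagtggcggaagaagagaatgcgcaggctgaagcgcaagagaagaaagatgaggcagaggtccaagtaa

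The size of the change followed the length of the coding sequence. Across 83 members with a coding length, Spearman's rho between coding length and log2 fold change was −0.77 at 3 h, −0.75 at 24 h and −0.77 at 72 h, given as a description across genes of the same libraries. With the length of the whole transcript, over 84 members, rho was weaker, at −0.54, −0.51 and −0.50. The 12 members of up to 300 coding bases had a median log2 fold change of 1.33 at 3 h, 0.71 at 24 h and 0.83 after 72 h. The 34 members of 300 to 450 bases had medians of 0.32, 0.14 and 0.25, and the 18 members of 600 to 900 bases had −0.10, −0.09 and −0.11.

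Other genes had medians nearer to 0 than the members in each coding length bin that held members, except 450 to 600 bases. The 334 other genes of up to 300 coding bases had medians of 0.14, 0.02 and 0.03, and the 668 of 300 to 450 bases had −0.01, −0.05 and −0.08. Between 450 and 600 coding bases the 16 members had medians of 0.03, −0.02 and 0.00. These were nearer to 0 than the −0.07, −0.06 and −0.11 of the 797 other genes. The 1680 other genes of 600 to 900 bases had −0.05, −0.03 and −0.06, nearer to 0 than the 18 members of that length. By length of the whole transcript the members and other genes lay closer together: up to 400 bases, the 7 members had medians of 1.56, 0.74 and 0.93 and the 44 other genes 1.10, 0.46 and 0.79. Between 400 and 600 bases the 17 members had 0.39, 0.17 and 0.33, and the 246 other genes 0.37, 0.17 and 0.20. Rpl35, with 372 coding bases and a median annotated transcript length of 946, stood apart from members of its length. Removing the trend on transcript length left it at 2.41 at 3 h. Other genes of 800 to 1000 bases had a median of −0.04 at 3 h, so that this removal could change Rpl35 only little. The same removal lowered Rps27 to 1.07, Rpl38 to 1.22, Rps29 to 1.24 and Rps28 to 1.23, and brought Rps21 (0.94), Rpl36 (0.87) and Rpl37a (0.88) below log2 fold change 1, each still with an adjusted p under 0.05 in edgeR.

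**Figure D3:**
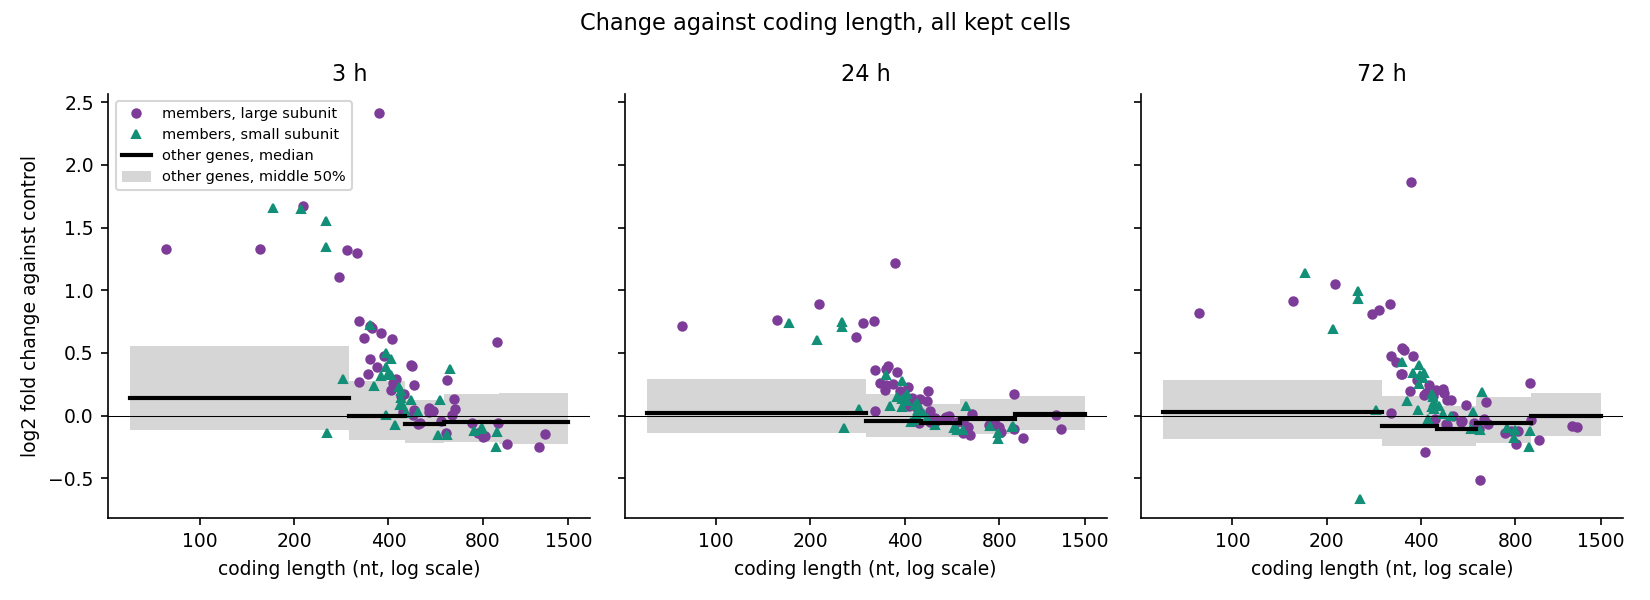
Log2 fold change against control (y axis) by coding length in bases (x axis) at 3, 24 and 72 h. Points are the tested members with a coding length, except Rpl39l, coloured by subunit. Lines and bands give the median and middle 50% of the other genes in each length bin up to 1500 bases. The members of up to 300 bases have a median of 1.33 at 3 h against 0.14 for other genes of that length, and Rpl35 lies above the other members of its length.

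Members that fell at 3 h did so by small amounts. Rps2, at the entry of the mRNA channel (chromosome 17, 24718116 to 24721929, plus strand), was at 7466, 7553, 7583 and 7564 CPM in control mice, at 6141, 6338, 6406 and 6451 at 3 h, at 7013, 6979, 7019 and 7304 at 24 h and at 6107, 6325, 6449.9 and 6479 at 72 h. All treated mice were below all control mice, by a log2 fold change of −0.25 ± 0.022 at 3 h (adjusted p = 2.96e-09), −0.09 ± 0.022 at 24 h and −0.25 ± 0.022 at 72 h.

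Rplp0, which anchors the stalk that recruits elongation factors, was at 5417, 5716, 5792 and 5794 CPM in control mice and at 4793, 4908, 4871 and 4795 at 3 h. At 24 h it held 4915 to 5119 CPM and at 72 h 4841 to 5049, so that no treated mouse reached a control mouse. Its log2 fold changes were −0.23, −0.18 and −0.19, each with an SE of 0.023. Of the other stalk proteins, Rplp2 rose by 0.71 and Rplp1 by 0.33 at 3 h, and Rpl12, at the stalk base, fell by 0.07 on the log2 scale. With the trend on transcript length removed the calls of Rplp1 (0.05, adjusted p = 0.114) and Rpl12 (−0.04, adjusted p = 0.199) were lost, and that of Rpl12 also with the trend on coding length removed (−0.05, adjusted p = 0.0962) and with TMM factors over other genes (−0.05, adjusted p = 0.0716).

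Rpl3, which reaches towards the peptidyl transferase centre, fell from 3512 ± 70.5 to 2943 ± 63.4 CPM at 3 h (log2 −0.25 ± 0.023, adjusted p = 4.22e-09) and was at 3528 ± 44.8 CPM at 24 h. Rpl10a fell by 0.14 and Rpl8 by 0.14 on the log2 scale at 3 h. Rpl36a, which contacts the end of the tRNA, rose by 0.75. Rpl10, which is placed last in the maturing large subunit, was higher at 3 h (0.13) and 72 h (0.10) and lower at 24 h (−0.16), and with library size alone its value at 3 h was −0.02.

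At 24 h, 41 members were higher and 20 lower than in control mice (background 14.5% and 13.8%), with a member median of 0.06 and an all-gene median of 0.00. Ranges did not overlap for 42 members above and 20 below (background 12.7% and 11.1%). Rpl35 rose past log2 fold change 1 (background 1.46%) and 0 members fell past it (background 0.756%). The largest called fall at 24 h was that of Rps3a1, a platform protein of the small subunit, from 7714 ± 118 to 6758 ± 58.1 CPM (log2 −0.19 ± 0.021, adjusted p = 3.83e-07). It was also lower at 3 h (−0.10) and 72 h (−0.12), and the ranges of the treated and control mice did not overlap at any time, although with the trend on transcript length removed the 72 h call was lost (−0.05, adjusted p = 0.145).

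From 3 to 24 h, 55 members fell and 8 rose (background 16.3% lower and 12.3% higher). These comparisons share their mice with those against control. The 8 were Rpl6l (0.52), Rpl3 (0.26), Rps2 (0.16), Rpl10a (0.09), Rpl7a (0.08), Rpl8 (0.07), Rps18 (0.07) and Rps3 (0.06). Without 3 h mouse 1 the rises were 4, without 24 h mouse 4 they were 5, and with library size alone 31 rose and 34 fell. Rpl35 fell by 1.20 and Rps28 by 1.05 on the log2 scale.

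At 72 h, 47 members were higher and 23 lower than in control mice (background 18.9% and 18.5%). Ranges did not overlap for 47 members above and 23 below (background 15.2% and 14.7%). The member median was 0.11 and the all-gene median 0.02. Of the 10 interferon-stimulated genes, 1 was higher and 2 lower than in control mice at this time, with a median log2 fold change of −0.09. Rpl35, Rps29 and Rpl38 rose past log2 fold change 1 (background 1.70%) and 0 members fell past it (background 1.16%). From 24 to 72 h, 46 members rose and 8 fell, where 3.70% of all genes rose and 5.38% fell. The largest rises were those of Rpl35 (0.65), Rps29 (0.40) and Rps27 (0.29).

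A few members rose early and were below control at 72 h. Rpl15, a large subunit protein and a Diamond-Blackfan anaemia gene (chromosome 14, 18267823 to 18271391, minus strand), was at 2002, 2043, 2066 and 2124 CPM in control mice and at 2477, 2513, 2528 and 2516 at 3 h. It was at 1861, 1891, 1841 and 1879 CPM at 24 h and at 1417, 1432, 1458 and 1465 at 72 h. The groups were separate, above control at 3 h (log2 0.29 ± 0.022) and below it at 24 h (−0.14 ± 0.022) and 72 h (−0.51 ± 0.022, adjusted p = 6.82e-14).

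Rpl27, also a Diamond-Blackfan anaemia gene (chromosome 11, 101442298 to 101445529, plus strand), was at 1218, 1234, 1255 and 1282 CPM in control mice, at 1870.1, 1898, 1899 and 1939 at 3 h, at 1445, 1428, 1432 and 1528 at 24 h and at 1003, 989, 1043 and 1042 at 72 h. It stood above control at 3 h (0.61 ± 0.028) and 24 h (0.23 ± 0.027) and below it at 72 h (−0.29 ± 0.028), without overlap. Rpl7a, a large subunit protein, was lower than in control mice at each time, by −0.17 at 3 h, −0.09 at 24 h and −0.22 at 72 h, and its call at 24 h was lost without 24 h mouse 3 (−0.08, adjusted p = 0.0548).

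Near copies limit how exactly some of these values belong to a single gene. Of 85 members with a transcript, 24 had another annotated gene matching at least 95% over at least 90 of the last 200 bases, the end that this assay reads. The copy of Rpl15, Gm10020, went from 12.7 CPM in control mice to 53.9, 24.1 and 52.3 at the 3 times, and that of Rpl27, Rpl27-ps3, from 13.7 to 40.0, 20.4 and 40.2. Rpl35 had 3 such copies. Gm2000 and Gm10269 rose at 3 h by 1.47 and 1.46 on the log2 scale, from 8.26 and 1.66 CPM, and no value is given here for Gm8444. Wdr89, which ends in the sequence of Rplp2, fell by 0.93, 0.62 and 1.40 on the log2 scale. How the counting divided reads between copies is not given in the sources used here, so values of a member and its copy are uncertain where they share sequence.

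Rps27 has 2 relatives among the members, shown because they moved differently. The coding sequence of Rps27rt, a single-exon retrogene on chromosome 9 (114982366 to 114982739), matched that of Rps27 at all 255 bases. That of Rps27l, a p53-responsive paralog (chromosome 9, 66946086 to 66949516), was 76.1% identical, and capitals mark its 61 substitutions relative to Rps27:
Rps27: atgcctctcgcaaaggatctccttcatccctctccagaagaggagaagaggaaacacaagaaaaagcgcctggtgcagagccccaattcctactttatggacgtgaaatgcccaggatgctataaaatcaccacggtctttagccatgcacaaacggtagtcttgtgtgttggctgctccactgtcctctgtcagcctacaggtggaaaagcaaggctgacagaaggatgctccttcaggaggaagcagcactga
Rps27l: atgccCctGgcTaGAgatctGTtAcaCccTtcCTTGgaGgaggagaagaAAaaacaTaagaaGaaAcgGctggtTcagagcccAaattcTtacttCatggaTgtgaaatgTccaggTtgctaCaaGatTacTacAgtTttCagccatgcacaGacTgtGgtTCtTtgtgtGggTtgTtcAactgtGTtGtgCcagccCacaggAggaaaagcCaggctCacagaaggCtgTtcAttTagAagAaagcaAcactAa

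Rps27rt was at 87.5, 92.8, 93.5 and 92.2 CPM in control mice, at 77.4 to 89 at 3 h, at 81.2 to 90.8 at 24 h and at 56.1, 60, 57.1 and 57.8 at 72 h. The 72 h mice lay below all others (log2 −0.66 ± 0.05, adjusted p = 1.18e-09), at a time when Rps27 was 1.99-fold above control. At 3 h its value was −0.14 ± 0.052, a call that was lost without control mouse 2 (−0.13, adjusted p = 0.0875), control mouse 3 (−0.13, adjusted p = 0.105), 3 h mouse 1 (−0.12, adjusted p = 0.0956) or 3 h mouse 4 (−0.12, adjusted p = 0.0896). DESeq2, the likelihood ratio test, the replicate block, TMM factors over other genes and the pair of groups alone lost it too (adjusted p = 0.0531 to 0.119). Since the coding sequences are the same, the split of UMIs between Rps27 and Rps27rt is uncertain. Rps27l, with a coding sequence of its own, rose at 3 h from 560.2 ± 25.3 to 686 ± 40.5 CPM (log2 0.29 ± 0.041, adjusted p = 4.72e-06) and was at 582 ± 21.6 and 579 ± 13.1 CPM later. With the trend on transcript length removed its value at 3 h was 0.04 and the call was lost (adjusted p = 0.447).

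Of the other paralogs, Rpl22l1, a paralog of Rpl22 that is known to oppose it in blood cell development, rose by 0.38, 0.25 and 0.19 on the log2 scale at 3, 24 and 72 h. Rpl22 itself rose by 0.47, 0.20 and 0.29. Rpl36al, the autosomal paralog of X-linked Rpl36a, rose by 0.27 at 3 h and was at 0.03 and 0.02 later, while Rpl36a was at 0.75, 0.36 and 0.48. Rpl7l1 was at 144 ± 9.24 CPM in control mice and 129 ± 3.15 at 72 h (log2 −0.14 ± 0.049), a call that was lost without control mouse 1 (adjusted p = 0.0975) or 72 h mouse 2 (0.0558), 3 (0.0554) or 4 (0.0618), or with the trend on coding length removed (−0.08, adjusted p = 0.202). Rpl39l, a paralog of Rpl39 best known from testis, had 117 UMIs in all mice and 0 to 2.38 CPM, and no change was detectable at this depth. Rpl6l, related to Rpl6, fell from 32.3 ± 1.82 to 23.7 ± 0.985 CPM at 3 h (log2 −0.43 ± 0.071, adjusted p = 3.63e-05) and was at 33.9 ± 1.95 at 24 h and 26.1 ± 1.18 at 72 h.

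Of members with known regulatory roles, Rpl5, Rpl11, Rps6 and Rpl13a changed by small amounts, while Rpl38 rose by 1.67 on the log2 scale at 3 h. Rpl5 and Rpl11, which with the 5S rRNA bind Mdm2 and so stabilise p53 when ribosome assembly fails, were at −0.06 and 0.06 at 3 h. The call of Rpl5 was lost without any one of control mice 2, 3 and 4, 3 h mice 2 and 3, 24 h mice 1 and 3, and 72 h mice 1, 2 and 4 (adjusted p = 0.054 to 0.107, edgeR), and with DESeq2, the likelihood ratio test, TMM factors over other genes, the pair of groups alone or either length trend removed (adjusted p = 0.134 to 0.513). The call of Rpl11 was lost without control mouse 1 or 4 or any 3 h mouse (adjusted p = 0.0591 to 0.117), with the likelihood ratio test, without the filter or with the transcript length trend removed (adjusted p = 0.106 to 0.917), and with library size alone it was at −0.09. Rps6, the target of the S6 kinases below mTORC1, was at 2782, 2799, 2821 and 2781 CPM in control mice and 2581, 2552, 2548 and 2563 at 3 h, without overlap (log2 −0.13 ± 0.021, adjusted p = 5.07e-05). Rpl13a, part of a complex that silences inflammatory mRNAs in myeloid cells, was at −0.06 ± 0.02 at 3 h and at −0.04 and −0.00 later. Its 3 h call was lost without control mouse 3 (−0.06, adjusted p = 0.0657) or 3 h mouse 3 (−0.06, adjusted p = 0.0507). The call was also lost with DESeq2, the likelihood ratio test, TMM factors over other genes, the pair of groups alone or the coding length trend removed (adjusted p = 0.0991 to 0.281). Rps4x, encoded on the X chromosome, was lower at each time, by −0.10, −0.14 and −0.18.

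**Figure D4:**
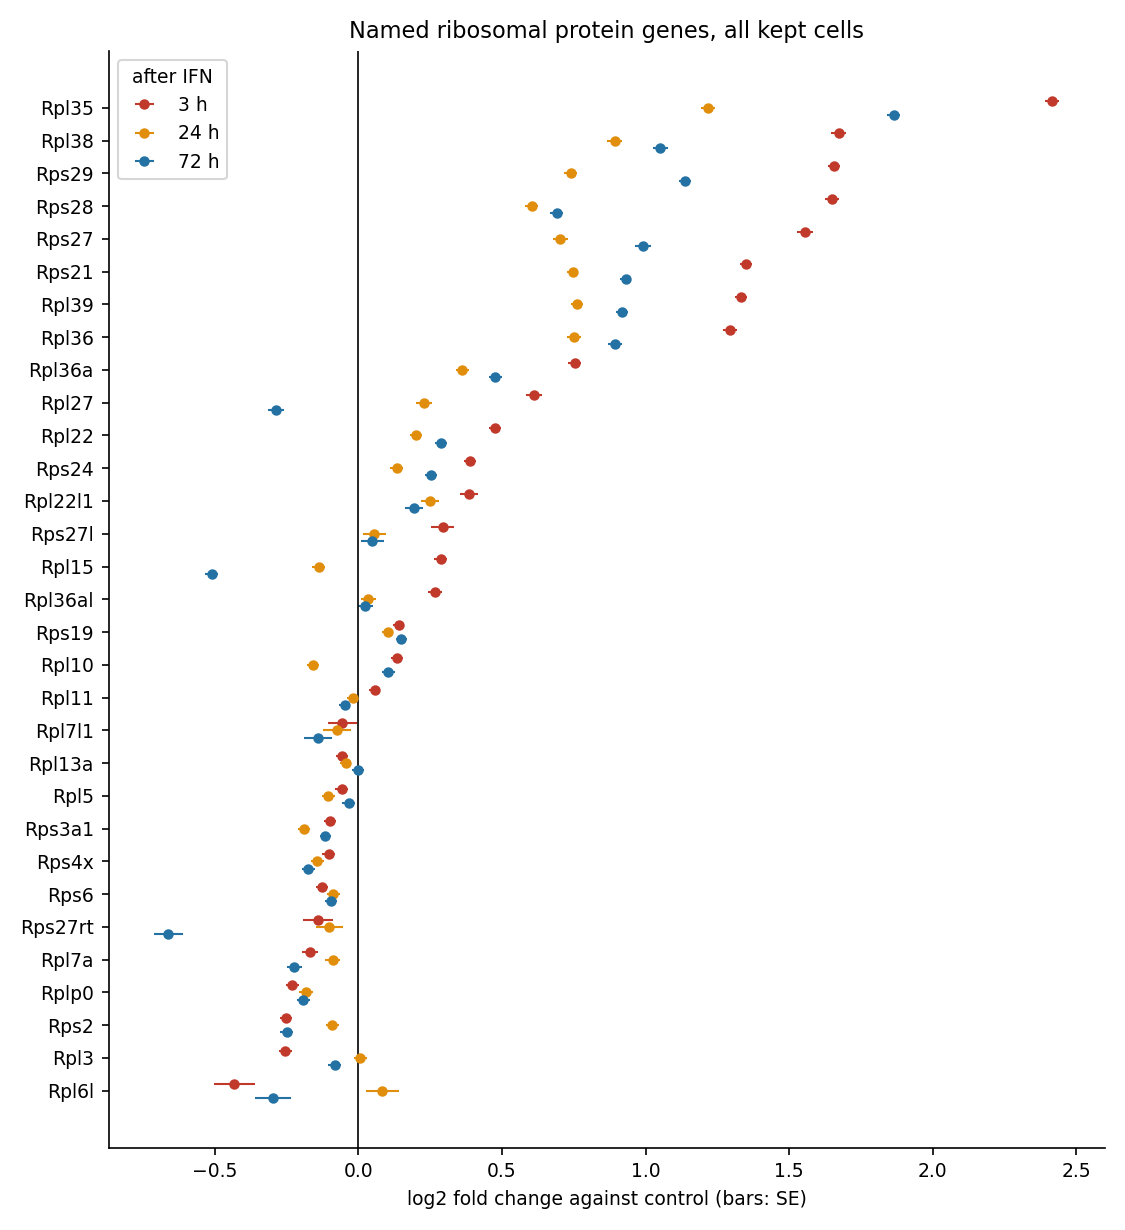
Log2 fold change against control (x axis) of 31 members at 3, 24 and 72 h, from the fit over 16 mice; points are estimates and bars ± SE. Rpl35 stands highest at each time, and Rpl15, Rpl27 and Rps27rt are below 0 at 72 h; the values of Rps19, Rpl11 and Rpl10 at 3 h are above 0 here and below it with library size alone as the scaling.

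By position in the ribosome, the members of one site did not move as a unit. The background for all counts by site, subunit, disease list and function is the share of all genes that rose and fell, 19.7% and 19.2% at 3 h, 14.5% and 13.8% at 24 h, and 18.9% and 18.5% at 72 h. Of 9 proteins of the exit tunnel and its rim, 6 rose and 1 fell at 3 h, 6 and 1 at 24 h, and 7 and 2 at 72 h. Of 5 at the peptidyl transferase centre and tRNA sites, 2 rose and 3 fell at 3 h, 1 and 2 at 24 h, and 2 and 3 at 72 h. Of 6 at the decoding site and mRNA entry, 3 rose and 3 fell at 3 h, 2 and 3 at 24 h, and 2 and 2 at 72 h. Of the large subunit, 30 of 51 tested members rose and 11 fell at 3 h, and of the small subunit 21 of 33 rose and 9 fell. At 24 h these counts were 25 and 10 and 16 and 10, and at 72 h 28 and 15 and 19 and 8.

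Of 18 genes of Diamond-Blackfan anaemia, 15 rose and 1 fell at 3 h (background 19.7% and 19.2%) with a median of 0.42, 12 rose and 5 fell at 24 h, and 11 rose and 3 fell at 72 h. The members as a whole, given above, also rose more often than all genes at 3 h. A difference between this list and the other members was not tested. Rps19, the gene most often mutated in that disease, was at 3534, 3652, 3679 and 3683 CPM in control mice and at 3961, 4056, 4039 and 3967 at 3 h. Its ranges at the 3 times stayed above the control range, with log2 fold changes of 0.14 ± 0.02, 0.10 ± 0.02 and 0.15 ± 0.02, whereas with library size alone its value at 3 h was −0.01 and with the trend on transcript length removed its call was lost (0.06, adjusted p = 0.0588). Rps24 of the same list rose from 8033 ± 213 to 10512 ± 304 CPM at 3 h (0.39 ± 0.021), and was at 0.13 and 0.25 later, where the call at 24 h was lost with the trend on transcript length removed (0.07, adjusted p = 0.0672).

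Most other lists of translation genes did not follow the ribosomal proteins, in a comparison that was not matched for length. The ribosome biogenesis genes, given below, did rise more often than all genes at 3 h. Fau, which encodes a ribosomal protein fused to a ubiquitin-like protein and falls outside the symbol rule, rose by 0.62 on the log2 scale at 3 h, 0.22 at 24 h and 0.37 at 72 h. Of 21 other tested genes with TOP mRNAs or for translation factors, 1 rose and 16 fell at 3 h (median −0.15), 1 and 7 at 24 h, and 2 and 14 at 72 h. Members of long coding sequence also fell at 3 h, with a median of −0.10 for the 18 of 600 to 900 bases and −0.23 for the 3 of 900 to 1500. Among the 21 other genes, the rise at 3 h was that of Nap1l1, a histone chaperone (0.26 ± 0.039). The largest falls were those of Vim, an intermediate filament protein (−0.40 ± 0.054), and Eif4b, a helicase cofactor of initiation (−0.37 ± 0.042). Eef1a1, which brings tRNAs to the ribosome, was at −0.22 ± 0.031 at 3 h and at 0.01 and −0.01 later.

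Of 28 initiation factors and regulators, 7 rose and 5 fell at 3 h, near the background of 19.7% and 19.2%, led by Eif2ak2, the interferon-induced kinase PKR (2.82 ± 0.059). Of 40 ribosome biogenesis genes, 15 rose and 1 fell at 3 h, 5 rose and 7 fell at 24 h, and 10 rose and 7 fell at 72 h. Ddx21, a nucleolar helicase, went from 152 ± 7.17 to 335 ± 16.6 CPM at 3 h, and Gnl3, nucleostemin, from 116 ± 6.27 to 194 ± 9.38. Of 76 tested mitochondrial ribosomal protein genes, 15 rose and 16 fell at 3 h, at the background of 19.7% and 19.2%, 4 rose and 30 fell at 24 h, and 3 rose and 55 fell at 72 h, with medians of −0.04, −0.10 and −0.21.

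The classes of cells were rebuilt by clustering without the ribosomal protein genes and named from marker lists, giving HSC-like, LMPP-like (lymphoid-primed multipotent), megakaryocyte (MK) progenitor-like, erythroid progenitor-like and myeloid progenitor-like cells. The makeup differed between libraries. HSC-like cells were 13.46% of control cells, 28.8% at 3 h, 18.5% at 24 h and 23.4% at 72 h. Myeloid progenitor-like cells were 35.5%, 22.7%, 28.3% and 21.2%. The study proposes that the sorted HSC-rich cells added to each sample, with fewer cells captured at 3 h, can explain the higher HSC abundance then. Clusters outside the 5 classes were left out of the class tests, the largest of them with 7.88% of control cells and 11.4% at 3 h. One HSC-like cluster was led by the B lineage genes Jchain, Mzb1 and Cd79a beside Ly6a, Hlf and Mecom. In control mice the members' share of UMIs was 33.6% ± 0.402 in HSC-like cells, 35.1% ± 0.122 in LMPP-like, 32.6% ± 0.548 in MK progenitor-like, 32.6% ± 0.735 in erythroid progenitor-like (SD, 3 mice) and 29.8% ± 0.431 in myeloid progenitor-like cells (4 mice). Control HSC-like clusters had medians of 8235 and 11045 UMIs per cell and myeloid progenitor-like clusters 27068 to 35368, so that class and depth cannot be told apart in these shares. At 24 h the share was 33.8% ± 0.180 in HSC-like cells, where the ranges of treated (33.5–34.0%) and control mice (33.2–34.0%) overlapped, 35.3% ± 0.0716 in LMPP-like and 32.2% ± 0.322 in myeloid progenitor-like cells. At 3 and 72 h it was 35.7% and 35.9% in HSC-like, 36.2% and 37.0% in LMPP-like, and 33.5% and 33.3% in myeloid progenitor-like cells.

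The largest rises and the falls of Rpl15 and Rpl27 were found in each of the 5 classes. Rpl35 rose at 3 h by 2.39 ± 0.044 on the log2 scale in HSC-like cells, 2.40 in LMPP-like and MK progenitor-like, 2.56 in erythroid progenitor-like and 2.44 ± 0.030 in myeloid progenitor-like cells. 83 members were tested in each class. In HSC-like cells 49 rose and 9 fell at 3 h (background 11.6% and 5.23% of 9660 genes), 25 and 13 at 24 h (2.56% and 0.797%), and 40 and 9 at 72 h (2.47% and 0.994%). With library size alone, 31 rose and 40 fell in HSC-like cells at 3 h, and without control mouse 2 the falls at 72 h were 5.

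In LMPP-like cells 42 rose and 20 fell at 3 h (background 10.2% and 4.47%), 27 and 18 at 24 h (3.63% and 1.15%), and 40 and 17 at 72 h (3.34% and 1.69%). In MK progenitor-like cells 42 rose and 14 fell at 3 h (7.47% and 1.79%), 33 and 6 at 24 h (2.71% and 0.797%), and 36 and 16 at 72 h (2.94% and 1.17%). In erythroid progenitor-like cells 55 rose and 1 fell at 3 h (8.98% and 3.57%), 26 and 4 at 24 h (5.54% and 3.52%), and 38 and 4 at 72 h (3.05% and 1.39%). In myeloid progenitor-like cells 52 rose and 16 fell at 3 h (15.4% and 12.6%) and 50 and 10 at 72 h (9.39% and 8.69%). At 24 h 45 rose and 6 fell there (10.9% and 9.49%), with 3 falls instead of 6 when control mouse 3, 24 h mouse 2, 3 or 4, or 72 h mouse 1 was left out.

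Members called in all 5 classes numbered 41 higher and 1 lower at 3 h, 20 and 1 at 24 h, and 33 and 3 at 72 h. Of the 7617 genes tested in every class, 5.79% and 0.0788% were so called at 3 h, 1.60% and 0.118% at 24 h, and 1.63% and 0.302% at 72 h. The falls were those of Rps2 at 3 h, Rps3a1 at 24 h, and Rpl15, Rpl27 and Rps27rt at 72 h. Rpl15 was at −0.40 in HSC-like and −0.49 in myeloid progenitor-like cells at 72 h, and Rps27rt at −0.81 and −0.60.

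**Figure D5:**
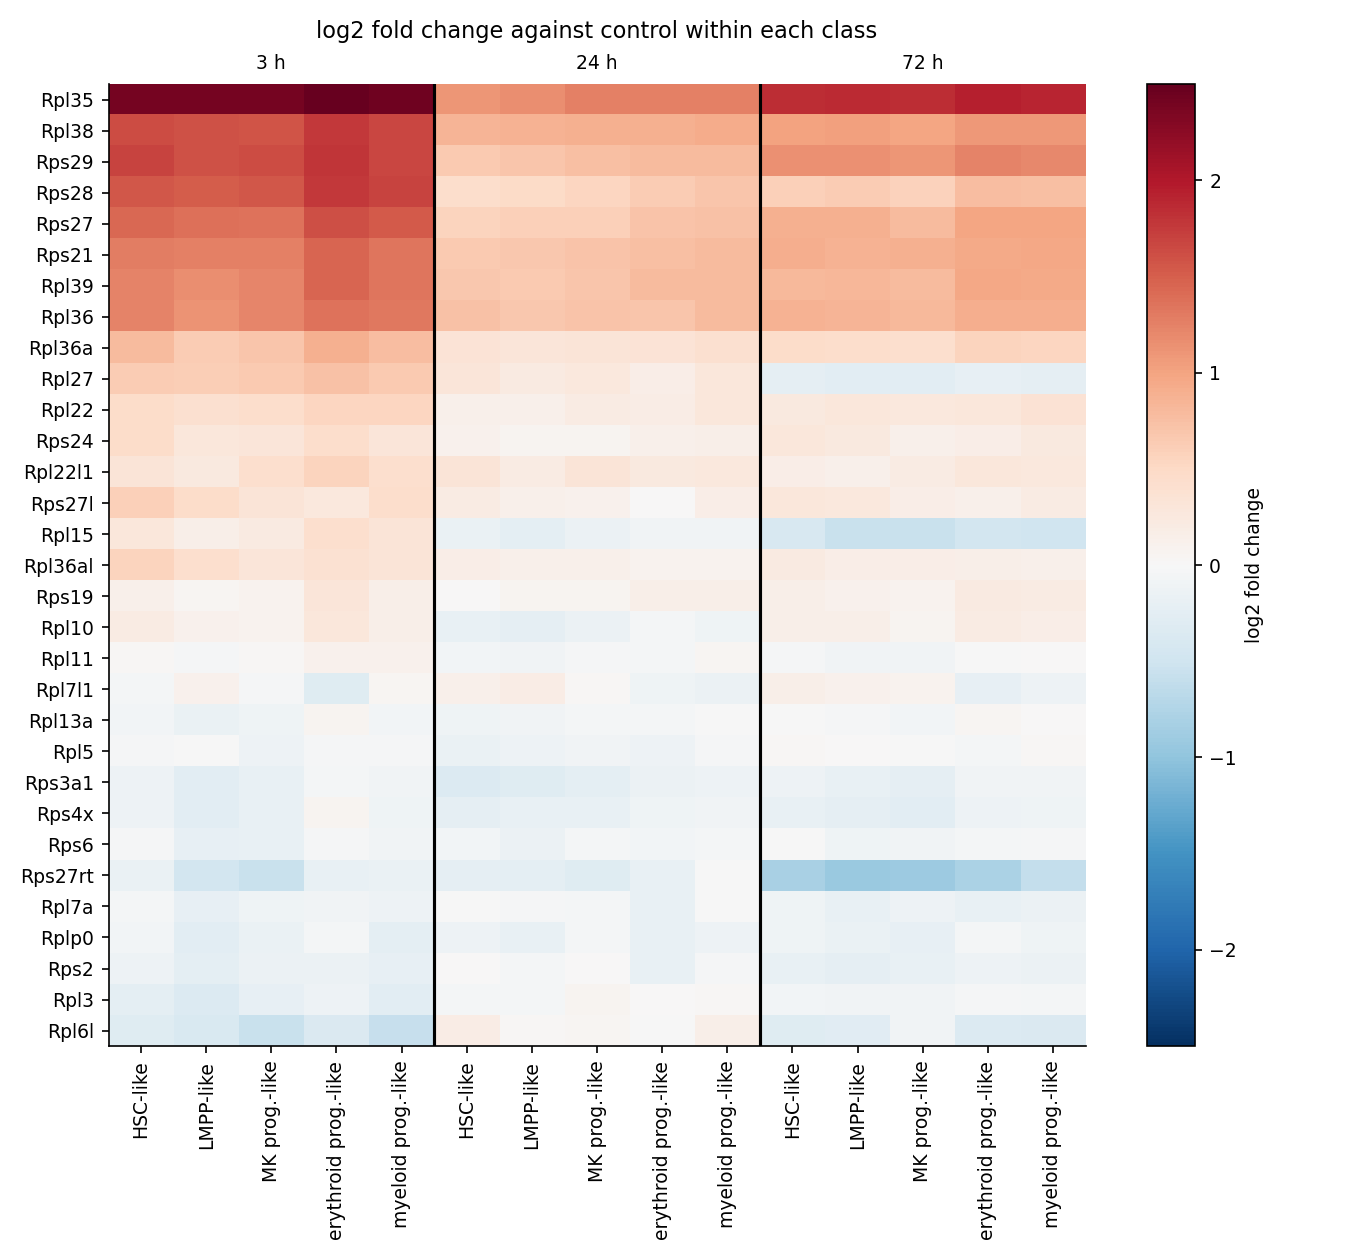
Heat map of the log2 fold change against control of 31 members (rows) in 5 classes of cells (columns) at 3, 24 and 72 h, with colour for the value. Rpl35 lies between 2.39 and 2.56 in every class at 3 h, and Rpl15, Rpl27 and Rps27rt are below 0 in every class at 72 h.

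The question whether HSC-like and myeloid progenitor-like cells differ in their response was tested as an interaction over 15 mice and 10714 genes. At 3 h, 4 members had a higher change in HSC-like cells (background 3.17% higher and 1.27% lower): Rpl36al by 0.26 ± 0.056 on the log2 scale, Rps24 by 0.22 ± 0.037, Rplp0 by 0.20 ± 0.043 and Rpsa, a platform protein, by 0.13 ± 0.037. 0 had a lower change in edgeR's test, and at an unadjusted p under 0.05 these counts were 13 and 0. At 24 h, 14 members had a lower change in HSC-like cells (background 1.81% lower and 1.01% higher), among them Rps28 (−0.23 ± 0.046), Rps26 (−0.21 ± 0.044), Rpl35a (−0.20 ± 0.037) and Rps3a1 (−0.19 ± 0.038), and 0 had a higher one, with 41 lower and 2 higher at an unadjusted p under 0.05. At 72 h edgeR's quasi-likelihood test called 0 members in either direction (background 0.513% higher and 0.327% lower), with 6 higher and 3 lower at an unadjusted p under 0.05. With library size alone, which scales the classes differently, the counts were 0 higher and 28 lower at 3 h, 38 lower at 24 h and 3 lower at 72 h.

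The changes behind 3 of these differences are given for each class. Rplp0 at 3 h stood at −0.08 ± 0.037 in HSC-like cells (adjusted p = 0.162, edgeR) and at −0.24 ± 0.030 in myeloid progenitor-like cells (adjusted p = 1.34e-07). Rps28 at 24 h rose by 0.44 ± 0.039 in HSC-like and by 0.69 ± 0.031 in myeloid progenitor-like cells. Rps3a1 at 24 h fell by 0.35 and by 0.13 on the log2 scale.

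In control mice the composition of ribosomal protein mRNA differed between these classes, given here per 1000 UMIs of the members and without a test. The classes also differed in UMIs per cell, so that class and depth cannot be told apart here. The values are ranges over 3 control mice for HSC-like and 4 for myeloid progenitor-like cells. Rps27l had 0.897 to 1.12 in HSC-like and 2.01 to 2.25 in myeloid progenitor-like cells, a ratio of 0.474. Rpl36al had 2.36 to 3.00 and 4.65 to 5.08, a ratio of 0.550. Rps2 had a ratio of 0.691 and Rpl4, an exit tunnel protein, 0.694. On the other side Rps27rt had a ratio of 1.58 and Rps27 of 1.39, at 3.82 to 4.11 in HSC-like and 2.75 to 2.88 in myeloid progenitor-like cells. Rpl21 (1.299), Rpl23 (1.26) and Rps9 (1.26) followed.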

How the data were processed

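The authors deposited raw UMI counts per gene and barcode (10x 3′ v3.1 libraries, Cell Ranger 3.1.0, mm10), and hashtag counts, a hashtag margin score and a call per barcode from Seurat, also as deposited. Barcodes called as 1 mouse with at least 700 genes and at most 5% mitochondrial UMIs were kept. Multiplets of different mice were removed, and doublets within a mouse remain. Counts were summed per mouse and, for at least 10 cells, per mouse and class. Fits used edgeR 4.0.16 with limma 3.58.1 (R 4.3.3): filterByExpr, TMM, quasi-likelihood F test over 16 mice, Benjamini-Hochberg over 12042 genes, call at adjusted p under 0.05, tested on simulated data. DESeq2 1.42.0 and the edgeR likelihood ratio test were alternatives. The p-values measure the spread between these mice, which share a library within a group.

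The members, lists and tests were chosen with earlier results of these data known. Named were 13 fixed members, the paralogs, and per time the 5 largest called rises and falls whose 4 mice all lay on one side of the control mean, and of other translation lists the 2 largest rises and falls at 3 h. Members such as Rpl10a, Rpl12 or Rpl21 were named after their values were seen. Control cells were clustered with Scanpy 1.11.5 and leidenalg 0.10.2 (500 variable genes, resolution 0.8, 15 neighbors), without ribosomal protein, mitochondrial and interferon-stimulated genes, and labels were transferred to the treated cells. Gene positions and lengths are from GENCODE vM21 (GRCm38), matched by Ensembl identifier, transcript starts from RefSeq, and near copies from BLAST 2.17.0. Lengths are medians over annotated transcripts.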

Additional observations from a re-analysis of the deposited data

Results flagged for a closer look

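Among 132 sets of 4 values checked for a sample far from the others, where chance gives about 1 in 20, a single mouse stood apart in 7. Rpl35 was at 1554 CPM in 1 mouse at 24 h and 1519 to 1524 in the other 3. Rpl39 was at 5792 CPM in 1 mouse at 72 h, Rps6 at 2533 CPM in 1 mouse at 72 h, Rpl7l1 at 134 CPM in 1 mouse at 72 h and Rps2 at 7304 CPM in 1 mouse at 24 h. Rpl39l reached 2.38 CPM in 1 mouse at 3 h, a gene with few UMIs in any mouse. The members' share of UMIs was 33.5% in 1 mouse at 24 h and 33.1 to 33.2% in the other 3.

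The change after IFNα differed between HSC-like and myeloid progenitor-like cells, by the interaction test, for Rpl36al (0.26), Rps24 (0.22) and Rplp0 (0.20) at 3 h and for Rps28 (−0.23), Rps3a1 (−0.19) and Rps27 (−0.17) at 24 h. Signs are those of the HSC-like minus the myeloid progenitor-like log2 fold change. Of 83 members, 4 were called higher at 3 h, near the 3.17% of all genes so called. At 24 h 14 were called lower, against 1.81% of all genes. With library size alone the counts were 0 higher and 28 lower at 3 h, and 38 lower at 24 h.

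Barcodes without a hashtag, which no comparison used, carried more Rpl35 in the treated libraries than in control, where they held 571 UMIs in each 1e+06. They held 1405 at 3 h, 1443 at 24 h and 1285 at 72 h, against 3263, 1559 and 2439 in the kept cells. Rps27, Rpl38 and Rps29 were also higher in them at 3 h than in control. Rps2 (8565 against 5899) and Rplp0 (5418 against 4537) were higher too, whereas in kept cells both were lower at 3 h (5892 against 7751 and 4497 against 5804). The median content of these barcodes was 599 UMIs at 3 h and 1252 in control.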

How the results depend on the processing

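Counts of members were within 1.5 times their reported value under most alternatives. The exceptions came mainly from library size alone as the scaling, with 35 members lower at 3 h, 31 higher and 34 lower from 3 to 24 h, and in the classes, at 3, 24 and 72 h, 40, 32 and 24 lower in HSC-like (with 31 higher at 3 h), 37, 28 and 27 in LMPP-like, 33, 14 and 25 in MK progenitor-like, 23, 9 and 10 in erythroid progenitor-like and 32, 16 and 23 in myeloid progenitor-like cells. For the difference between HSC-like and myeloid progenitor-like cells it gave 0 higher and 28 lower at 3 h, 38 lower at 24 h and 3 lower at 72 h. With the length trend removed 15 members were lower at 72 h and 18 higher from 3 to 24 h, and with the coding length trend removed 14 were lower at 72 h. The rises from 3 to 24 h were 5 with TMM factors over other genes and 5 with the likelihood ratio test. The 72 h difference in share was 2.70 points at the control class makeup over the 5 classes. Mean shares at that makeup were 32.1% in control mice, 34.9% at 3 h, 33.4% at 24 h and 34.8% at 72 h. All treated mice were then above all control mice. In cells of 10000 to 15000 UMIs the differences were 1.5, 0.520 and 2.46 points. The coding length and matched-depth alternatives were chosen after seeing the data. Library size alone turned Rps19 (−0.01), Rpl11 (−0.09) and Rpl10 (−0.02) at 3 h, and coding length turned Rpl13a at 72 h (0.08). Removing the length trend ended the 3 h calls of Rps19, Rpl11, Rpl5, Rpl12, Rplp1 and Rps27l, the 24 h call of Rps24 and the 72 h calls of Rps6, Rpl3 and Rps3a1. Beyond what these settings do by construction, the cause was not tested.

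Leaving out 1 mouse gave 50 to 51 higher and 17 to 20 lower at 3 h, 39 to 41 and 17 to 23 at 24 h, 46 to 48 and 21 to 24 at 72 h, 4 to 8 and 54 to 55 from 3 to 24 h, and 36 to 46 and 6 to 9 from 24 to 72 h. In HSC-like cells it gave 47 to 50 and 6 to 9, 20 to 25 and 9 to 16, and 34 to 41 and 5 to 9 at the 3 times, and in myeloid progenitor-like cells 51 to 53 and 13 to 17, 43 to 47 and 3 to 7, and 48 to 50 and 7 to 12. The share differences were 3.14 to 3.58, 1.58 to 1.97 and 3.16 to 3.56 points. Hashtag numbers were not taken to pair the mice, since the correlations of same-numbered mice, −0.0638 to 0.111, were not all over 0.1. The own number was the best match in 21 of 48 cases, where 4 equal candidates would give 12, so that some pairing is not excluded. With the number as a replicate block 52 members were higher and 20 lower at 3 h, 41 and 23 at 24 h, and 47 and 24 at 72 h. Depth limits Rpl10l, Rpl3l and Rpl39l, and control mouse 4, with 58 cells, entered the class tests for myeloid progenitor-like cells only.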
